A study of Mus musculus with 16 samples.

Results

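The repertoires described here are the TCRα chains of CD8 T cells from mice without Themis, taken from the thymus and from lymph nodes. The members are the libraries that the labels give as Themis-/- and that were not sorted for Vα3.2, which makes 4 of the 16 libraries of the series, 2 from CD8 T cells of lymph nodes (LN) and 2 from single-positive (SP) CD8 thymocytes. All mice were C57BL/6 and carried Foxp3-GFP, and the Themis deletion was germline, so thymocytes and LN cells lacked Themis alike. The 4 corresponding Themis+/+Foxp3-GFP libraries entered the same fit, so they contribute to the estimate of spread behind the p-values, and were used to ask whether a change differed between the genotypes and whether clonotypes were shared with them. The sources used here do not give the age of the mice. According to the methods, lymph nodes of several mice of a genotype were combined before sorting, whereas the design text speaks of individual mice, so a library may stand for 1 mouse or for a pool. The figure legends speak of separate experiments, and no label says which library came from which. The tables hold TCRα sequences only, so genotype, CD8 expression and tissue rest on the labels.

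The TCRα chain is made in thymocytes by joining a V segment to a J segment at the Tcra locus on chromosome 14. The loop formed at the joint, CDR3, contacts the peptide held by MHC, and terminal transferase can insert bases there that no germline segment encodes (N additions). Rearrangement starts between V and J segments that lie close together and can go on outwards, towards distal V and constant-proximal J segments, until a chain is positively selected. Themis acts downstream of the TCR in thymocytes and adjusts the thresholds of selection. The comparison of LN with thymus therefore asks how the chains that populate the periphery differ from those present among SP CD8 thymocytes when Themis is missing.

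The following CDR3 sequences carry the results below and are shown as deposited, from the first cysteine codon to the last codon of CDR3, with inserted bases in capitals. Inserted bases here are all those between the aligned end of V and start of J, so they can hold P (palindromic) bases as well as N additions. The first 4 sequences are of the kind found in every one of the 4 libraries, and none has an inserted base.
TRAV16 with TRAJ22, all 4 libraries: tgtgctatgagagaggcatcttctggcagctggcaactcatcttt
TRAV3-3 with TRAJ30, all 4 libraries: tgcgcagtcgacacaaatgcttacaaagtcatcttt
TRAV12-3 with TRAJ7, all 4 libraries: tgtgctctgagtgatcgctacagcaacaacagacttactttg
TRAV7-3 with TRAJ15, all 4 libraries: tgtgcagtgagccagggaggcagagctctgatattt
TRAV10 with TRAJ13, largest of an LN library: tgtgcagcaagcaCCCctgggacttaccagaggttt
TRAV14-1 with TRAJ22, largest of the other LN library: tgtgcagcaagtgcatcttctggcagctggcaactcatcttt
TRAV8-1 with TRAJ21, largest of a thymic library: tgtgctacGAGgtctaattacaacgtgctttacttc
TRAV6-7 with TRAJ12, largest of the other thymic library: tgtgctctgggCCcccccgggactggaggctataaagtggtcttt
TRAV9-3 with TRAJ45, LN: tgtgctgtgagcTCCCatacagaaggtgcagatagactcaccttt
TRAV9-3 with TRAJ26, LN: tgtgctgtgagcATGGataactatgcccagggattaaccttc
TRAV9-3 with TRAJ24, LN: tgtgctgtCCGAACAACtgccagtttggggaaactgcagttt

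The 4 libraries held 66697 to 146191 reads and 4357 to 12268 CDR3 nucleotide sequences, of which 14.8% to 17.97% were seen in 1 read. Reads were counted without molecular identifiers, so the limits and intervals given here cover counting error only, and in bulk RNA fewer cells of a kind and less RNA per cell cannot be told apart. A clonotype is a CDR3 nucleotide sequence with its V and J segment. The D and N copies of a V segment, which lie in repeats of the locus, were counted together, so TRAV9-3 stands for TRAV9N-3 and TRAV9D-3. Of these, the study names TRAV9N-3 as the segment of the Vα3.2 chain.

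Many of the deposited sequences came in sets that differed by 1 base near the 3′ end of CDR3, which J encodes. Such a variant of a more abundant sequence with the same V and J made up 45.6% and 45.3% of the sequences of the LN libraries and 42.03% and 38.8% of those of the thymic libraries. They held 33.04% and 33.5% of LN reads and 29.8% and 28.5% of thymic reads, so the LN libraries held more of them. Between 61.2% and 65.7% of these variants carried G where the partner had T. Against the germline J segments, at least 4.38% of the reads of every Themis-/- library differed at each of positions 4 to 7 and 9 counted back from the last base of CDR3, and up to 14.2% at position 5. At positions 10 to 21 no position reached more than 0.226%. The cause was not tested. A pair of sequences of the NKT cell chain, described below with the V-J pairs, show such a set, and they differ by T42G, counted from the first base of CDR3, with the base concerned in capitals.
TRAV11 with TRAJ18, more abundant: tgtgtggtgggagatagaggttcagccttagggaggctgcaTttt
TRAV11 with TRAJ18, less abundant: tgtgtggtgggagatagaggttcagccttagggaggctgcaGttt
The first had 29 and 127 reads in the thymic libraries and the second 12 and 74. Results on clonotypes are therefore also given for merged clonotypes, in which sequences of the same V, J and length that differ only in the J-encoded end count once. That definition was chosen after the data were seen.

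**Figure D1:**
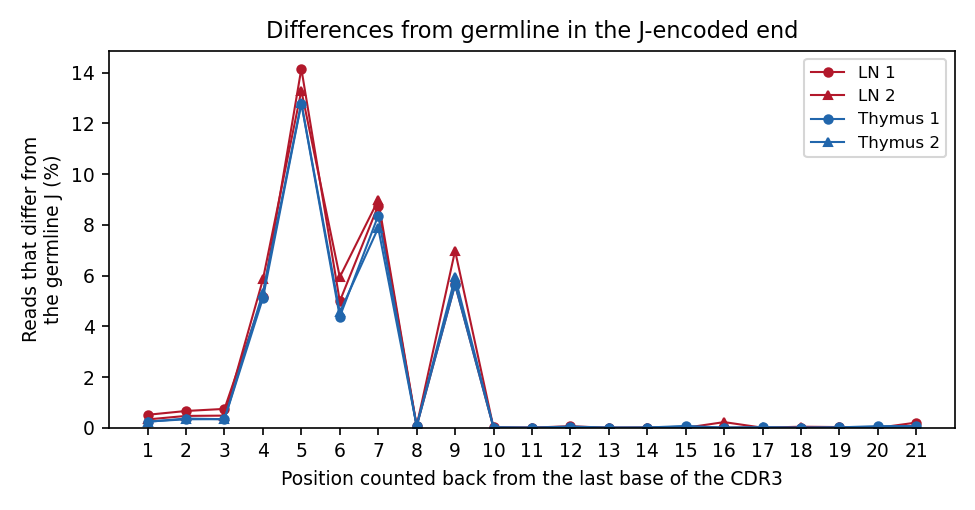
Share of reads (%) that differ from the germline J segment (y axis) at each position counted back from the last base of CDR3 (x axis), with 1 line for each Themis-/- library. In all 4 libraries the differences lie at positions 4 to 7 and 9, with the peak of up to 14.2% at position 5.

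TRAV9-3 was the V segment that rose from thymus to LN. It took 3.22% and 2.38% of LN reads and 0.917% and 0.999% of thymic reads, so both LN libraries lay above both thymic ones. The log2 fold change was 1.57 (SE 0.44, adjusted p = 0.0242, edgeR quasi-likelihood test). Of 52 V segments tested, 2 passed this test (3.85%), 1 in each direction (1.92% each), and 8 had an unadjusted p under 0.05 (15.4%). DESeq2 called 3, the further one being TRAV6-2, which was lower in LN (0.0135% and 0.00742% against 0.163% and 0.223% of reads) without passing in edgeR (adjusted p = 0.139). TRAV9N-3 lies at chr14:53231433-53232102 and TRAV9D-3 at chr14:52920443-52921112 (GRCm38, both annotated as V genes on the plus strand).

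The rise of TRAV9-3 was spread over many chains. It made up 104 and 78 merged clonotypes in LN (4.81% and 2.90% of all) and 100 and 97 in the thymus (1.54% and 1.44%). Counted in merged clonotypes, the change also passed (adjusted p = 0.00389, edgeR). The largest single TRAV9-3 sequence of the LN libraries held 0.241% and 0.106% of reads, so no single sequence accounted for the share. The TRAV9-3 sequences printed above are among the largest of the LN libraries and had 161, 86 and 78 reads in the library where each was largest. They carry inserted bases, but the next largest of the first LN library, with TRAJ11 and 133 reads, has none. The call was lost when any one of the 4 libraries was left out, while the log2 fold change stayed between 1.32 and 1.87. It was also lost with a block by library number, and kept with the numbers of these LN libraries swapped. No label says that a number marks a mouse or an experiment. By the first listed name, with D and N copies apart, TRAV9D-3 passed (1.45% and 1.38% of LN reads against 0.358% and 0.434% of thymic reads, log2 1.88, adjusted p = 0.0305, edgeR). TRAV9N-3 did not (1.76% and 1.0006% against 0.559% and 0.565%, log2 1.33, adjusted p = 0.150), although its libraries did not overlap, and most sequences list several V names.

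In Themis+/+ mice TRAV9-3 took 0.610% and 1.32% of LN reads and 0.862% and 0.698% of thymic reads, and these libraries overlapped. The change in Themis-/- exceeded that in Themis+/+ by 1.25 on the log2 scale (SE 0.61), which did not pass the test over all segments (adjusted p = 0.568, edgeR), so a difference between the genotypes was not shown.

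TRDV2-1, a delta V segment that is also joined to TRAJ segments, fell. It had 0 and 4 reads in the LN libraries and 94 and 112 in the thymic libraries, or 0% and 0.00495% against 0.0643% and 0.0967% of reads. Taken over both libraries of a tissue, its share was 29.0-fold lower in LN, with a 95% counting interval of 11.2 to 107. In the Themis-/- libraries the adjusted p was 0.0353 (edgeR). In Themis+/+ mice TRDV2-1 took 0.3498% and 0.409% of LN reads and 0.1802% and 0.331% of thymic reads, the opposite order. The difference between the genotypes did not pass the test over all segments (log2 -5.45, SE 1.85, adjusted p = 0.185, edgeR). In Themis-/- mice TRDV2-1 made up 0 of 2164 and 2 of 2687 merged clonotypes in LN and 5 of 6499 and 6 of 6720 in the thymus. Counted in this way, the change did not pass (adjusted p = 0.830, edgeR). The adjusted p ranged from 2.99e-06 to 0.830 over the 15 alternatives, and it was also lost with any one library left out.

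The other V segments named did not pass the test. TRAV9-4 (0.675% and 0.840% against 0.510% and 0.321% of reads) and TRAV13-4 (2.06% and 1.503% against 0.921% and 1.08%) lay higher in both LN libraries. TRAV5-4 took 1.14% and 1.44% of LN reads and 0.6197% and 0.863% of thymic reads. Lower in both LN libraries were TRAV1 (0.484% and 0.403% against 1.37% and 1.03%), which the MAIT cell chain uses, and TRAV4-4 (1.14% and 1.45% against 1.63% and 2.85%). TRAV11 took 0.247% and 0.763% of LN reads and 0.833% and 0.792% of thymic reads, a gap that was small for one of the LN libraries. Its direction turned in clonotypes (log2 0.20) and with D and N copies apart (0.58). Both LN libraries lay above both thymic libraries for 7 of the 52 segments (13.5%) and below them for 14 (26.9%), without regard to the test. The plot of V segment use shows these segments by library.

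**Figure D2:**
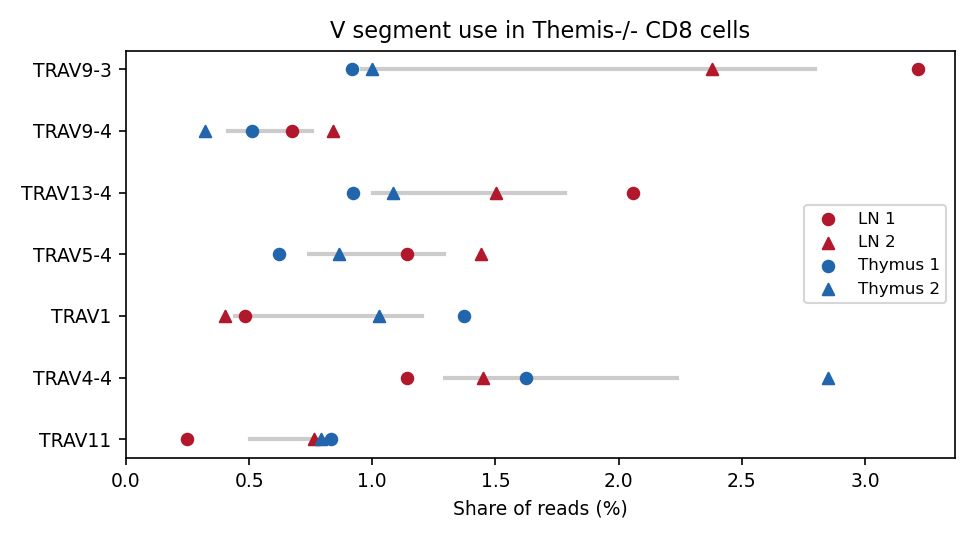
Share of reads (%, x axis) of 7 named V segments (y axis) in each Themis-/- library, LN in red and thymus in blue, with a grey line between the means of the tissues. TRAV9-3 stands at 3.22% and 2.38% in LN against 0.917% and 0.999% in the thymus, while the tissues lie closer together for the other segments.

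Among families, TRAV9 took 4.74% and 3.73% of LN reads and 2.33% and 2.03% of thymic reads. TRAV12, the family with the most reads in the thymus, took 17.0% and 18.6% in LN and 20.7% and 19.0% in the thymus. TRAV14 and TRAV6 overlapped between the tissues (8.77% and 10.98% against 10.3% and 11.7% for TRAV14, and 18.5% and 14.8% against 15.9% and 15.6% for TRAV6). The J-proximal segments TRAV17 to TRAV21, which are used in early rearrangements, took 1.51% and 2.39% of LN reads and 1.86% and 2.19% of thymic reads, and the tissues overlapped.

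No J segment passed the test between LN and thymus. Of 44 J segments tested, 0 were called by edgeR (0%), 0 had an unadjusted p under 0.05, and DESeq2 called 0. Both LN libraries lay above both thymic libraries for 13 J segments and below them for 13 (29.5% each). Among these, the J segments of at least 0.5% mean share with the greatest log2 fold changes were TRAJ35 (1.72% and 0.874% against 0.591% and 0.674%), TRAJ58 (0.879% and 1.61% against 0.508% and 0.761%) and TRAJ49 (2.63% and 2.61% against 1.502% and 1.81%) on the higher side. On the lower side they were TRAJ53 (0.162% and 0.485% against 0.694% and 0.695%), TRAJ6 (0.831% and 1.33% against 2.71% and 1.58%) and TRAJ4 (1.07% and 1.95% against 2.57% and 2.19%). All of these are without a call, with adjusted p from 0.644 to 0.656 (edgeR).

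Taken in blocks along the locus, J use in LN lay nearer the V-proximal end. The V-proximal block TRAJ48 to TRAJ61 took 12.6% and 11.4% of LN reads and 10.96% and 10.7% of thymic reads, and TRAJ37 to TRAJ47 took 16.1% and 15.4% against 13.6% and 14.1%. TRAJ30 to TRAJ35 and TRAJ21 to TRAJ28 overlapped between the tissues (16.2% and 16.8% against 14.9% and 16.8%, and 27.4% and 27.95% against 27.4% and 24.9%). The blocks nearer the constant region were lower in both LN libraries, with 17.7% and 16.4% against 19.0% and 20.7% for TRAJ11 to TRAJ18. For TRAJ2 to TRAJ9 the shares were 10.003% and 12.1% in LN and 14.1% and 12.8% in the thymus.

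The mean TRAJ number, which falls towards the constant region, was 28.1 and 27.4 in LN and 26.1 and 26.5 in the thymus, a difference of 1.46 between the means. The difference exceeded the spread within either tissue, but with 2 libraries against 2 an exact two-sided permutation test cannot give less than 0.333, the value found here and for every other mean compared below whose tissues did not overlap. In Themis+/+ mice the values were 32.0 and 29.3 in LN and 28.4 and 33.4 in the thymus. Those libraries overlapped, and libraries of the same Themis+/+ tissue lay further apart than the tissues did in Themis-/- mice.

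The same order was seen within several V families. Families of a library are parts of the same sample, so their counts are not further replicates of the shift. Over the 12 V families with at least 50 clonotypes in each of the 4 libraries, the mean TRAJ number was higher in LN for 9. The libraries did not overlap for 4 of these, TRAV6, TRAV8, TRAV12 and TRAV13 (33.3%), and no family was lower without overlap. In TRAV12 the mean TRAJ number was 25.9 and 25.9 in LN and 23.8 and 23.4 in the thymus. In Themis+/+ mice the TRAV12 values were 30.5 and 27.4 in LN and 26.3 and 31.0 in the thymus. The Themis+/+ thymic libraries thus lay further apart within this family than the Themis-/- tissues did. In merged clonotypes 8 of 10 families were higher in LN, and 5 did not overlap (50%), TRAV3 being the further one. In TRAV7 the tissues overlapped (24.5 and 25.4 against 24.6 and 25.3).

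**Figure D3:**
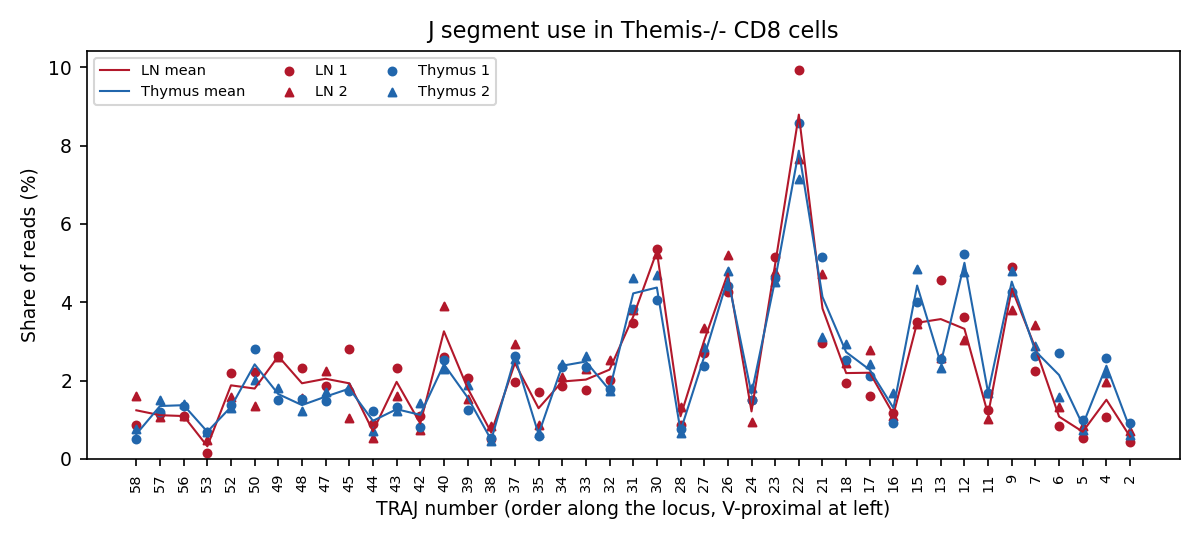
Share of reads (%, y axis) of each J segment in each Themis-/- library (points) and the mean of each tissue (lines), with the J segments ordered along the locus from the V-proximal end at the left to the constant region at the right. The lines follow the same profile, and none of the 44 segments passed the test.

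Of 694 pairs of a V family with a J segment, 3 were called between LN and thymus (0.432%), and 2 of these were lower in LN with no overlap of libraries (0.288%), while 61 had an unadjusted p under 0.05 (8.79%). TRAV3 with TRAJ44 had 0 and 0 reads in LN and 147 and 260 reads in the thymus (0.101% and 0.225%). Against a limit of 3 reads over both LN libraries, its share of reads was at least 76.4-fold lower in LN (adjusted p = 0.00599, edgeR). That limit counts reads, which are not independent cells, so it is no bound for clonotypes or cells. The thymic reads came from 13 sequences in each library, or 7 and 8 of 6499 and 6720 merged clonotypes, beside 0 of 2164 and 0 of 2687 in LN. In Themis+/+ mice the same pair took 0.235% and 0.364% of LN reads and 0.0561% and 0.186% of thymic reads, the opposite order. The difference between the genotypes was the only 1 of the 694 pairs to pass (0.144%, adjusted p = 0.0179, edgeR), and it was lost in clonotypes (0.373), in merged clonotypes (0.999) and without thymic library 2 (0.402). TRAJ44 lies at chr14:54173690-54173750 (GRCm38, plus strand), and no read of either LN library joined it to TRAV3, whereas TRAJ44 itself was read in LN with other V families. The pair lost the call in 5 of 14 alternatives (adjusted p from 0.000418 to 0.404), among them without an LN library (0.113) or a thymic library (0.107), and counted in merged clonotypes (0.379).

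TRAV11 with TRAJ18 is the pair of the semi-invariant chain of NKT cells, T cells that see lipids on CD1d. It had 0 and 3 reads in LN and 517 and 485 in the thymus, or 0% and 0.00371% against 0.354% and 0.419% of reads. The share was 188-fold lower in LN, with a 95% counting interval of 64.2 to 914 (adjusted p = 0.0415, edgeR). Reads of the chain with the CDR3 of 15 residues that marks NKT cells numbered 0 and 3 in LN and 517 and 457 in the thymus, so nearly all reads of the pair were of that chain. In the thymic libraries they came from 5 and 6 of 6499 and 6720 merged clonotypes, and the pair of sequences printed above belongs to them. The 3 LN reads were of 1 sequence in LN library 2, and the LN libraries held 2164 and 2687 merged clonotypes.

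Neither segment was lower in both LN libraries when joined to other partners. TRAV11 joined to other J segments took 0.247% and 0.759% of LN reads and 0.4795% and 0.373% of thymic reads, and TRAJ18 joined to other V segments took 1.94% and 2.44% against 2.16% and 2.52%. In the Themis+/+ libraries the pair took 0.0128% and 0.0418% of LN reads and 0.0553% and 0.116% of thymic reads. The difference between the genotypes did not pass the test (log2 -5.95, SE 2.32, unadjusted p = 0.0104 and not past 0.05 once adjusted, edgeR). The call for the pair was lost in 9 of 14 alternatives, while the log2 fold change ranged from -11.7 to -3.70. It was lost in clonotypes, in merged clonotypes, with the 4 Themis-/- libraries alone and without the 100 largest clonotypes. It was also lost with a block by library number, as given or crossed, and without LN library 1, thymic library 1 or thymic library 2. TRAV11 lies at chr14:53519303-53519859 and TRAJ18 at chr14:54200777-54200842 (GRCm38).

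Marker chains of other cells that the sort could hold were also counted. The MAIT chain, TRAV1 with TRAJ33 and a CDR3 of 12 residues, had 0 and 2 reads in LN and 0 and 0 in the thymus. TRDV segments had 129 and 837 reads in LN and 803 and 635 in the thymus, and reads with TRDJ or TRDC were 0 in all 4 libraries. Since the libraries hold TCRα chains only, these counts cannot show whether gamma-delta cells were in the sort. By reads, the NKT chain was thus the 1 marker chain whose tissues did not overlap, and its part in the other results was not tested.

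The third pair, TRAV10 with TRAJ13, was called higher, but its libraries overlapped. It took 1.87% and 0.0223% of LN reads and 0.0390% and 0.0389% of thymic reads. The first LN library held 1249 reads of the pair, 747 of them from the sequence printed above, the largest of that library. Without that library the log2 fold change was -0.72, against 4.71 with it.

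None of the other pairs named passed. TRAV6 with TRAJ52 took 1.03% and 0.761% of LN reads and 0.278% and 0.251% of thymic reads, and TRAV6 with TRAJ30 took 0.942% and 1.41% against 0.583% and 0.795%. TRAV14 with TRAJ22 took 2.96% and 1.94% against 1.54% and 1.45%. Lower in both LN libraries was TRAV12 with TRAJ9 (0.324% and 0.292% against 1.23% and 0.935%). TRAV12 and TRAV6 with TRAJ12 also lay lower (0.357% and 0.291% against 0.958% and 0.809%, and 0.691% and 0.716% against 1.07% and 1.33%). Of all pairs, 81 lay higher in both LN libraries (11.7%) and 181 lower (26.1%).

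How strongly V and J segments depended on each other depended on how clonotypes were counted. The mutual information between V family and J segment, drawn at 4357 clonotypes a library, was 0.390 and 0.384 bits in LN and 0.264 and 0.273 bits in the thymus. In merged clonotypes, drawn at 2164 a library, it was 0.340 and 0.351 against 0.337 and 0.343 bits, and the tissues overlapped.

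CDR3 loops were slightly longer in LN, although no length class passed the test. The mean length was 40.64 and 40.61 nucleotides in LN and 40.42 and 40.38 in the thymus, a difference of 0.225 nucleotides. CDR3s of 48 nucleotides took 5.27% and 7.01% of LN reads and 4.49% and 4.61% of thymic reads, with a log2 fold change of 0.44 (SE 0.17, adjusted p = 0.154, edgeR). The sum of the common lengths of 39 and 42 nucleotides was 54.8% and 54.8% in LN and 56.8% and 56.7% in the thymus. Of 15 lengths tested, edgeR called 0 (0%), 1 had an unadjusted p under 0.05 (6.67%), and DESeq2 called 2, those of 45 and 48 nucleotides. Both LN libraries lay above both thymic libraries for 2 lengths (13.3%) and below them for 4 (26.7%). Mean length in Themis+/+ mice was likewise a little higher in LN, at 40.79 and 40.81 against 40.66 and 40.72 nucleotides.

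LN chains carried fewer inserted bases although they were longer. The mean number of bases between the end of V and the start of J was 1.81 and 1.73 in LN and 1.89 and 1.86 in the thymus. Reads with no inserted base made up 36.7% and 40.4% of LN reads and 35.8% and 34.3% of thymic reads. In merged clonotypes these values were 1.91 and 1.89 against 2.09 and 2.01 bases, and 35.4% and 36.0% against 32.99% and 32.7%, in the same order. Reads with 2 inserted bases took 13.1% and 13.1% of LN reads and 14.9% and 16.4% of thymic reads. Reads with 6 or more took 4.33% and 3.796% against 5.07% and 4.91%. The base composition of the insertions overlapped, with 67.5% and 66.5% G and C in LN and 66.3% and 67.4% in the thymus.

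In the centre of CDR3, with 4 residues left off at each end, no residue passed the test. Of 20 residues, edgeR called 0 (0%), 1 had an unadjusted p under 0.05 (cysteine, 5%), and DESeq2 called 1 (lysine). The central residues lie outside the J-encoded positions with many differences from germline. Both LN libraries were higher for 4 residues, asparagine, threonine, proline and isoleucine (20%), and lower for 5, cysteine, lysine, glycine, serine and valine (25.0%). Cysteine took 0.00027% and 0.0118% of central residues in LN, counted 1 and 53 times over reads, and 0.0254% and 0.0497% in the thymus (adjusted p = 0.429, edgeR). In Themis+/+ mice its log2 fold change was also negative (-1.86). The difference between the genotypes did not pass (adjusted p = 0.855, edgeR).

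The central loop carried a more negative net charge in LN. Net charge per CDR3 was -0.295 and -0.297 in LN and -0.264 and -0.238 in the thymus. Positive residues (lysine and arginine) took 2.49% and 2.87% of central residues in LN against 2.90% and 3.19% in the thymus, and negative residues (aspartate and glutamate) 7.79% and 8.23% against 7.71% and 7.54%. Lysine alone took 0.103% and 0.131% against 0.218% and 0.222%, with an adjusted p of 0.429 (edgeR). In Themis+/+ mice net charge overlapped between LN (-0.376 and -0.315) and thymus (-0.332 and -0.336).

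Other residue classes differed little. Hydrophobic residues took 24.9% and 25.2% in LN and 24.6% and 24.6% in the thymus, polar residues 42.3% and 42.4% against 42.1% and 41.8%. Glycine took 20.1% and 19.3% against 20.9% and 21.01%, and proline 2.35% and 1.98% against 1.78% and 1.88%. Mean hydropathicity on the Kyte-Doolittle scale overlapped (-1.21 and -1.28 in LN, -1.23 and -1.23 in the thymus).

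Cysteine inside CDR3 is known from strongly self-reactive thymocytes. Over the whole CDR3 without its first residue, reads with a cysteine took 1.44% and 1.37% in LN and 1.25% and 1.66% in the thymus, and the tissues overlapped. With the last 4 residues left out, where many sequences differ from germline, the shares were 0.208% and 0.143% in LN and 0.289% and 0.485% in the thymus, so both LN libraries lay lower. That alternative was chosen after the data were seen, and in Themis+/+ mice the same measure overlapped (0.363% and 0.211% against 0.1746% and 0.688%).

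LN libraries held fewer and larger clonotypes than thymic libraries. At 66697 reads, the depth of the smallest of the 4 libraries, 4357 and 5255 clonotypes were expected in LN and 10394 and 10789 in the thymus. In merged clonotypes these numbers were 2164 and 2605 against 5582 and 6047, so the order held under both definitions. The methods say that RNA came from a similar number of thymocytes and LN cells, but the sources used here give no cell number per library.

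Reads in clonotypes above 0.1% of a library made up 35.1% and 24.6% in LN and 9.45% and 6.24% in the thymus, from 196 and 146 against 44 and 37 clonotypes. Merged, they made up 65.2% and 56.6% against 17.2% and 11.8%. The 100 largest clonotypes took 23.6% and 19.6% of LN reads and 14.1% and 11.2% of thymic reads. The inverse Simpson index, the number of equally large clonotypes that would give the same concentration, was 920 and 1241 in LN and 1558 and 2784 in the thymus. The tissues did not overlap in any of these measures, under either definition of a clonotype. In Themis+/+ mice the 100 largest, the index and the clonotypes above 0.1% overlapped between the tissues, and 1 of these LN libraries was too shallow for a value at 66697 reads. Clonotypes above 0.1% took 3.90% and 20.5% of LN reads and 2.37% and 9.01% of thymic reads in these mice.

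**Figure D4:**
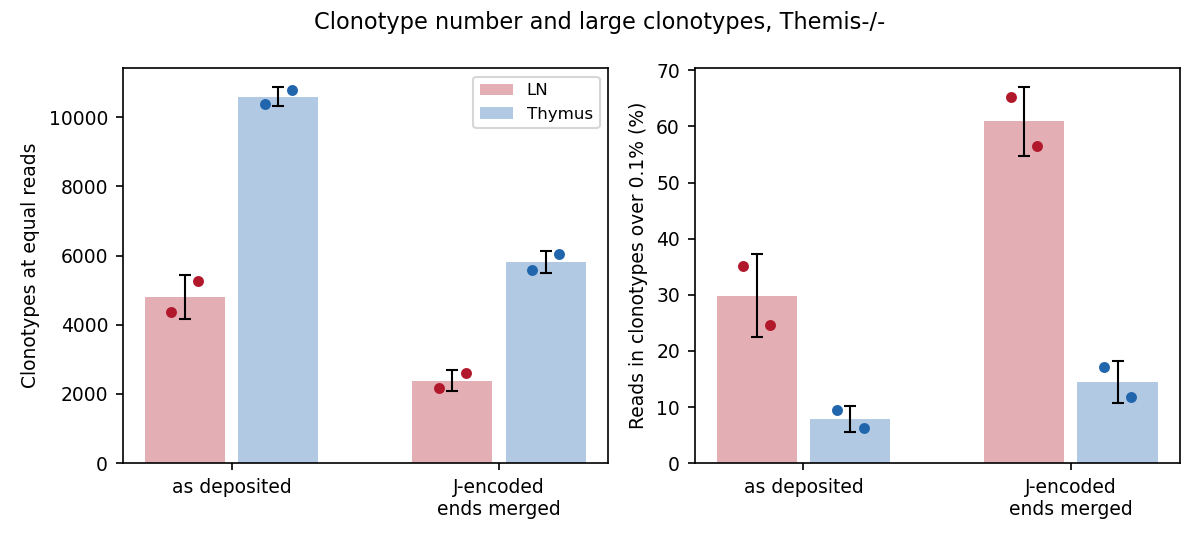
Expected clonotypes at 66697 reads (left y axis) and share of reads (%) in clonotypes above 0.1% of reads (right y axis) in Themis-/- LN and thymus, with clonotypes as deposited or with J-encoded ends merged. Bars are means of 2 libraries, error bars SD and points libraries, and LN lies below the thymus at the left and above it at the right under both definitions.

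The single largest clonotypes did not follow this order. The largest took 1.12% and 0.727% of LN reads and 1.22% and 0.644% of thymic reads, and these overlapped. The TRAV10 with TRAJ13 chain printed above had 747 reads in 1 LN library and 0 in the 3 others. The TRAV8-1 with TRAJ21 chain had 1778 reads in 1 thymic library and 0 in the others, and the TRAV6-7 with TRAJ12 chain had 745 reads in the other thymic library alone. Of the 4 largest, only the TRAV14-1 with TRAJ22 chain, which has no inserted base, was read in several libraries, with 253 and 588 reads in LN and 0 and 628 in the thymus. In the thymic library without it, the same bases were listed under TRAV14-2 with 603 reads. Among the next largest, a TRAV12-2 with TRAJ30 chain without inserted bases had 326 and 55 reads in LN and 0 and 117 in the thymus, and a TRAV3-3 with TRAJ49 chain, also without them, had 0 and 356 against 3 and 0. A TRAV12-3 with TRAJ50 chain had 1752 reads in 1 thymic library only, and a TRAV8-2 with TRAJ4 chain of 5 inserted bases had 1 and 354 reads in LN and none in the thymus. A TRAV12-2 with TRAJ13 chain was read in 1 LN library only (324 reads), and a TRAV14-3 with TRAJ50 chain had 1 and 370 reads in the thymus and none in LN. The TRAV12-3 with TRAJ50 and TRAV12-2 with TRAJ13 chains, read in 1 library each, also lacked inserted bases.

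Few clonotypes of the LN libraries were found in the thymic libraries. Of 9636 LN clonotypes, 657 were read in a thymic library, which is 6.82% of LN clonotypes and 2.74% of the 23958 thymic ones. These shared clonotypes held 11.6% and 10.05% of LN reads. In merged clonotypes 461 of 4758 were shared (9.69%, and 3.59% of 12856 thymic ones). By library, LN library 1 shared 173 and 196 clonotypes with the thymic libraries and LN library 2 shared 219 and 208, whereas the LN libraries shared 137 with each other and the thymic libraries 453. Per 1000000 pairs of clonotypes that is 3.24, 3.70, 3.30 and 3.16 between tissues, 5.81 between the LN libraries and 3.04 between the thymic libraries. Per pair of all clonotypes, the LN libraries thus shared more with each other than with either thymic library, and the thymic libraries did not. This order did not hold among the 2000 largest clonotypes of each library. There the values were 5.75, 12.25, 7.5 and 8.5 between tissues, 10.75 between the LN libraries and 11.75 between the thymic libraries. An exact one-sided permutation test over the 3 ways to pair the libraries cannot give less than 0.333, the value found, so it cannot decide whether libraries of a tissue share more. LN clonotypes were shared as well with Themis+/+ thymus, with 192 and 121 for LN library 1 and 250 and 158 for LN library 2 (2.64 to 3.08 per 1000000 pairs).

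The shared chains were short of inserted bases. Shared clonotypes of the LN libraries carried 0.506 and 0.617 inserted bases on average, against 1.96 and 1.903 in the clonotypes not found in the thymus. No inserted base was present in 70.9% and 68.0% of shared clonotypes and in 32.3% and 34.98% of the others. Their mean TRAJ number was 23.4 and 23.4 against 27.2 and 28.03, so shared clonotypes used more constant-proximal J segments.

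The share of LN clonotypes found in the thymus fell with the number of inserted bases. It was 15.05% and 12.8% with none, 5.80% and 7.07% with 1, 5.66% and 3.97% with 2, and 1.66% and 2.99% with 3. With 4 to 5 inserted bases it was 0.635% and 1.13%. With 6 or more, 0 of 220 clonotypes of LN library 1 were found and 1 of 245 of LN library 2. Merged clonotypes gave 20.4% and 19.2% with none and 0.787% and 0.775% with 6 or more.

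**Figure D5:**
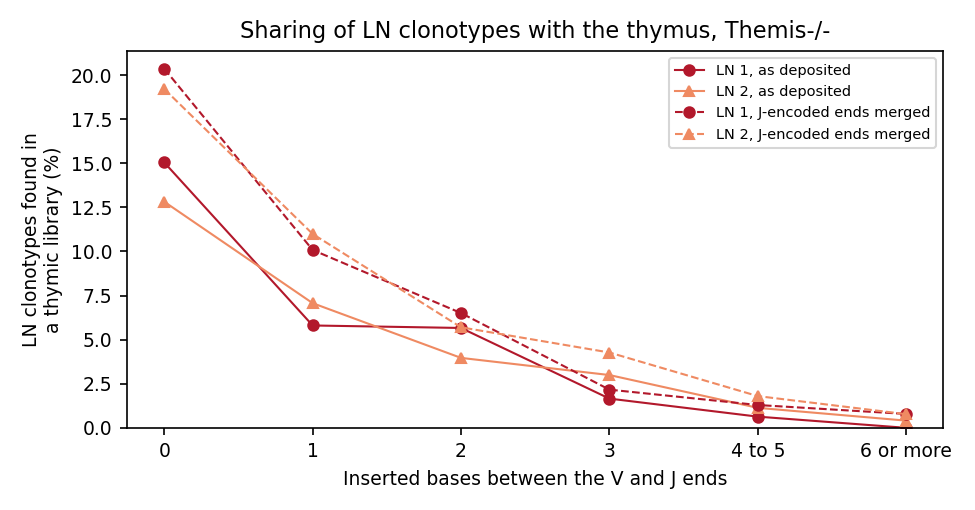
Share of LN clonotypes (%, y axis) that were also read in a Themis-/- thymic library, by the number of inserted bases (x axis), for each LN library, with clonotypes as deposited (solid) or with J-encoded ends merged (dashed). The share falls from 15.05% and 12.8% with no inserted base to under 1% with 6 or more.

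The share of LN clonotypes found in the thymus is given here by rank, and its differences were not tested. Of the 100 largest, 14 and 11 were found, compared with 6.26% and 6.57% of those ranked beyond 1000, and 11.3% and 8.89% of those between. In merged clonotypes, 15 and 15 of the 100 largest and 9.36% and 10.2% of those beyond 1000 were found, with 11.1% and 10% between. TRAV9-3 clonotypes, which had risen in LN, were found in the thymus for 9 of 193 and 9 of 157 (4.66% and 5.73%), beside 7.48% and 7.03% of all LN clonotypes, and the merged values were 6.73% and 10.3% beside 10.4% and 10.3%.

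Only 13 clonotypes were read in all 4 libraries, and all 13 lacked inserted bases. This count needs the same V name in every library, and by CDR3 bases alone 29 sequences were in all 4, of which 25 lacked inserted bases and the others had at most 2. The TRAV14 with TRAJ22 bases printed above are among the 29 but not among the 13. Of the 13, 12 were also read in a Themis+/+ library and 2 in all 8 libraries of unsorted CD8 cells. Those of the highest mean share include the 4 printed above. The TRAV16 with TRAJ22 chain had 31 and 207 reads in LN and 52 and 28 in the thymus, and the TRAV3-3 with TRAJ30 chain had 140 and 3 reads in LN and 26 and 68 in the thymus. The TRAV12-3 with TRAJ7 chain had 117 and 16 reads against 10 and 94, and the TRAV7-3 with TRAJ15 chain 35 and 6 against 113 and 22. A further TRAV12-3 with TRAJ7 chain had 68 and 122 reads in LN and 17 and 6 in the thymus. Levels of the same chain thus varied widely between libraries of 1 tissue.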

How the data were processed

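TCRα cDNA of sorted CD8 cells was made by template switching, amplified in rounds of PCR and sequenced on a MiSeq, and the authors extracted clonotypes with MiXCR, of a version that the sources used here do not name. The submitters' processing notes name CASAVA 1.4 and mm9. The authors deposited, for each library, a read count per CDR3 nucleotide sequence, not normalized, and that count's fraction of all reads in the library. Clone numbers missing from the tables (13.9% to 16.3% in the 4 libraries) show that clones were removed before deposit, and no stop codon or frameshift remained. The first listed V and J name was used, and 74.4% to 76.5% of sequences list several V names. Inserted bases are those between the deposited end of V and start of J, and N additions and P bases among them were not told apart. Positions come from GENCODE release M21 (GRCm38), joined by segment name, and J ends were compared with its segments (43 of 43 matched).

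Reads per V segment, J segment, V-J pair, length and central residue were compared in edgeR 4.0.16 (TMM scaling and quasi-likelihood test, at least 10 reads in at least 2 of 8 libraries, Benjamini-Hochberg adjusted p under 0.05), in 1 fit of the 8 unsorted libraries, which share 1 estimate of the spread. The fits of V segments and V-J pairs were also run on simulated counts with large known changes and a fixed spread. That spread was not estimated from these libraries, so the simulation does not show how reliable the calls made here are. DESeq2 1.42.0 was an alternative, as were other normalizations and filters, clonotypes in place of reads, each library left out and a replicate block. Means were compared over libraries with exact permutation tests. Whether libraries are single mice or pools is not settled by the sources, so p-values measure the spread between these libraries. Merging kept 3 bases of the J-encoded end.

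V, J and V-J features named are those past the threshold whose libraries do not overlap, and, where fewer than 3 pass in a direction, the 3 with the largest log2 fold change among features of at least 0.5% mean share without overlap. Also named are TRAV9-3, the families and J blocks given, and the clonotypes of highest mean share in all 4 libraries and the largest of each library. TRAV10 with TRAJ13, TRAV6-2, the TRAV9D-3 and TRAV9N-3 copies, the cysteine and lysine shares and the chosen TRAV9-3 sequences were named after their values were seen. The members and lists were chosen with earlier results of these data known. Python 3.11.15, numpy 2.4.6, pandas 2.3.3, scipy 1.17.1, matplotlib 3.10.9 and R 4.3.3 were used.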

Additional observations from a re-analysis of the deposited data

Results flagged for a closer look

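TRAV3 with TRAJ44 stood out because its change from thymus to LN differed between the genotypes by a test of the difference itself. The log2 fold change in Themis-/- minus that in Themis+/+ was -11.84 (SE 2.81, adjusted p = 0.0179, edgeR). Over 13 alternatives the adjusted p ranged from 0.00162 to 0.999, and 3 did not pass, those in clonotypes (0.373), in merged clonotypes (0.999) and without thymic library 2 (0.402). Both Themis-/- LN libraries were at 0 reads, so this fitted value depends on the prior count and is no bound. In shares of reads, the pair took 0% and 0% in Themis-/- LN, 0.101% and 0.225% in Themis-/- thymus, 0.235% and 0.364% in Themis+/+ LN and 0.0561% and 0.186% in Themis+/+ thymus. What sets the difference was not tested.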

How the results depend on the processing

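The limits are the 2 libraries a tissue, reads without molecular identifiers, and the 1-base variants in the J-encoded end. Alternatives named as merged, crossed, without the 100 largest clonotypes, with all clonotypes for mutual information, with CDR3 bases alone, and all those for the genotype difference and for leaving a library out of sharing were chosen after the data were seen. The genotype difference could not be fitted with only the Themis-/- libraries. Library numbers do not pair the samples by any label, and the deviations of same-numbered libraries correlated at -0.14 (V), -0.12 (J), -0.01 (pairs), -0.17 (lengths) and 0.66 (residues). With the replicate block, 0 V segments and 1 V-J pair were called, against 2 and 3 without it (TRAV9-3 log2 1.58, adjusted p = 0.0795, edgeR), and with the crossed pairing 1 and 1. Called V segments numbered 1 without the 100 largest clonotypes, in clonotypes, in merged clonotypes and with the 4 Themis-/- libraries alone, TRAV9-3 each time, and 3 with D and N copies apart (TRAV6-2, TRAV9D-3 and TRDV2-1). Called V-J pairs numbered 31 with DESeq2, 1 without the 100 largest clonotypes, and 0 in clonotypes, in merged clonotypes and with the 4 libraries alone. DESeq2 called 2 lengths and 1 residue, and all residues of CDR3 gave 1 (glycine). The genotype difference was called for 1 feature, and for 14 with DESeq2, 3 without the 100 largest clonotypes, and 0 in clonotypes and merged clonotypes.

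The difference in mean length was 0.131 in clonotypes and 0.165 merged, in net charge -0.0305 without the 100 largest clonotypes, and in internal cysteine 0.188 percentage points in clonotypes. Mutual information differed by 0.229 bits with V segments, 0.179 with all clonotypes and 0.00538 merged. Clonotypes at equal reads differed by -4431 as amino acid sequences and by -3430 merged, the 100 largest by 15.3 percentage points merged, and clonotypes above 0.1% by 29.1 as amino acid sequences and 46.4 merged. Shared LN clonotypes made up 24.2% as amino acid sequences, 10.2% by CDR3 bases alone, 9.69% merged, 6.33% at equal reads and 3.01% among the 2000 largest. Reversed were TRAV11 in clonotypes (log2 0.20) and with D and N copies apart (0.58), and TRAV10 with TRAJ13 without LN replicate 1 (-0.72, against 5.69 without LN replicate 2). The cause was not tested.

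With each library left out in turn, called V segments ranged from 0 to 0, J segments from 0 to 0, V-J pairs from 0 to 15 (15 without LN replicate 2), lengths from 0 to 3, residues from 0 to 2 and genotype differences from 0 to 8. The differences LN minus thymus ranged from 0.203 to 0.247 nucleotides in length, -0.151 to -0.0613 inserted bases, 1.63 to 5.29 percentage points without inserted bases, 1.14 to 1.77 in TRAJ number, -0.514 to 0.366 in TRAV17 to TRAV21, -0.0518 to 0.0136 in hydropathicity, -0.0578 to -0.0320 in charge and -0.253 to 0.158 in internal cysteine. They ranged from 0.114 to 0.124 bits, -6234 to -5337 clonotypes, -1703 to -477 in inverse Simpson index, 7.02 to 11.02 and 16.7 to 27.2 percentage points in the 100 largest and in clonotypes above 0.1%, and sharing from 3.798% to 7.48%.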

Other observations

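TRAV6-2, TRAV1 and TRAV4-4, lower in both LN libraries by reads, showed the same order in merged clonotypes. They were chosen after their values were seen and do not stand for all segments lower in LN. The direction of TRAV11, also lower by reads, turned in clonotypes. TRAV6-2 had 2 and 2 merged clonotypes in Themis-/- LN and 15 and 18 in Themis-/- thymus, or 0.0924% and 0.0744% against 0.231% and 0.268% of all. TRAV1 had 17 and 15 against 77 and 58, or 0.786% and 0.558% against 1.185% and 0.863%, and its reads outside the MAIT chain numbered 323 and 324 in LN and 2007 and 1190 in the thymus. TRAV4-4 had 28 and 49 merged clonotypes in LN and 157 and 187 in the thymus (1.29% and 1.82% against 2.42% and 2.78%), while its largest sequence took 0.207% and 0.147% of LN reads and 0.0479% and 0.0708% of thymic reads.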
